A study of Mus musculus with 4 samples.

Results

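Meg3, Rian and Mirg are long noncoding RNAs of the imprinted Dlk1-Dio3 domain of mouse chromosome 12, chosen here by their gene symbols in the count matrices. Of these 3 genes, 2 were measured, Meg3 (ENSMUSG00000021268) and Mirg (ENSMUSG00000097391), out of 27998 genes of the Illumina matrix. In the Nanopore matrices, which hold 31986 isoforms, Meg3 had 11 isoforms and Mirg had 3. Rian was not analysed here. The study read the same single-cell cDNA with short Illumina reads, which count transcripts per gene, and with long Nanopore reads, which count transcripts per splice isoform. The tissue was cortex, hippocampus and subventricular zone at embryonic day 18 (E18), from the mouse strain C57BL/6. Its cells were captured in droplets and processed as a smaller portion, labelled 190 cells, and a larger one, labelled 951 cells, called the 190 and 951 cell aliquots below. The labels give no treatment, so the groups compared are cell classes, which were named from marker genes after clustering without Meg3, Rian, Mirg or any of the imprinted genes listed below. After removal of cells with fewer than 1400 Illumina genes, 1121 cells remained, 186 of the smaller and 935 of the larger aliquot.

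In imprinted domains, 1 parental copy of a gene is silenced. In the Dlk1-Dio3 domain the noncoding RNAs are expressed from the maternal chromosome and the protein-coding genes Dlk1, Rtl1 and Dio3 from the paternal one, under the control of a differentially methylated region between Dlk1 and Meg3. Meg3 is a spliced, polyadenylated RNA that is abundant in the embryonic and adult brain, Rian is the host of a cluster of C/D box small nucleolar RNAs, and Mirg is the host of a large cluster of microRNAs. The mouse strain is inbred, so the parental origin of the molecules was not measured.

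On GRCm38, with Gencode vM21 annotation, all 3 genes lie on the plus strand, Meg3 at chr12:109541001-109571726, Rian at chr12:109603940-109661716 and Mirg at chr12:109729764-109749460. The 2 Meg3 isoforms that carry most of the Nanopore counts differ in their splicing and in their 3′ ends, and those stretches are shown because the isoform results turn on them. Meg3-205 has 3 exons and 1498 bases and ends at chr12:109545319, within the stretch chr12:109545280-109545379 of RefSeq (GRCm38.p6) printed first, where capitals mark the run of 20 A that follows its last base in the genome. Meg3-207 has 10 exons and 1896 bases, and its last 100 bases at chr12:109571622-109571721 (Gencode vM21) are printed with the poly(A) signal AATAAA in capitals, which ends 13 bases before the 3′ end. The last 40 bases of Meg3-205 hold no AATAAA, and the next one begins 26 bases past its end. The junctions show the last 20 bases of the second exon of Meg3-205 joined to the first 20 of the third, and the same stretch in Meg3-207, whose second exon is longer by the 44 bases in capitals.
Meg3-205 end: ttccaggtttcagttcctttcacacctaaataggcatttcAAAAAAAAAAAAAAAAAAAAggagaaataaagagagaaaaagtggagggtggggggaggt
Meg3-207 end: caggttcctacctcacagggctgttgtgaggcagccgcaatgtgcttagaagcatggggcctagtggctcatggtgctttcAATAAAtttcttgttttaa
Meg3-205 junction: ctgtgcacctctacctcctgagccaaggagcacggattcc
Meg3-207 junction: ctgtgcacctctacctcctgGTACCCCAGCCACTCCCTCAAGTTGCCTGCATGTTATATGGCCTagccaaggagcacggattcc

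RefSeq places 3 mature microRNAs within Meg3, 6 within Rian and 26 within Mirg. The sequences below are those that lie in an exon of an isoform with counts, since such an isoform carries them in its spliced RNA, and capitals mark the seed (bases 2 to 8), which pairs with target messages. MiR-1906, at chr12:109544588-109544609, lies in the third exon of both Meg3-205 and Meg3-207, whereas both arms of miR-770 lie in an exon of Meg3-209 only. Of the 26 microRNAs in Mirg, 5 lie in exons of Mirg-204 and none in those of Mirg-207 or Mirg-209. No seed is shared among the microRNAs printed. Mature microRNAs have no poly(A) tail and were not measured.
miR-1906: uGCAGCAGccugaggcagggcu
miR-770-5p: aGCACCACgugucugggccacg
miR-770-3p: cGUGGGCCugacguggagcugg
miR-134-5p: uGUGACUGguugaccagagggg
miR-134-3p: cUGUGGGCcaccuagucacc
miR-485-3p: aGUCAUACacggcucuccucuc
miR-410-5p: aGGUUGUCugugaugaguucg
miR-410-3p: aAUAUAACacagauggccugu

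A unique molecular identifier (UMI) stands for 1 captured transcript. In the smaller aliquot the kept cells held 1809081 UMIs by Illumina and 993220 by Nanopore, and in the larger one 8295650 by Illumina and 4889148 by Nanopore. Median depths per cell were 8048.5 and 7551 Illumina UMIs. The aliquots shared 13 cell barcodes, and in 12 of these pairs both cells were kept. The cells of 11 of the 12 pairs fell in the same class. The Illumina comparisons of mature neurons with radial glia are given with and without these 24 cells. Other results are given with them, and Nanopore counts and isoform usage were not refitted without them. Scrublet called 3 and 4 cells doublets. Hemoglobin and other blood genes lay between 530.3 and 789.7 CPM (counts per 1000000 UMIs of the sum) in every class, although none of the classes is one of blood cells. In the 951 cell aliquot, 3 cells with microglial markers fell among the intermediate progenitors and raised the summed microglial markers there to 399.8 CPM, while the other microglial sums lay between 0 and 6.63 CPM. Summed endothelial and pericyte markers had 22.2 and 98.3 CPM in radial glia. Summed oligodendrocyte lineage markers had 135 and 158 CPM in cycling cells, 118 and 52.6 CPM in intermediate progenitors and 5.55 and 48.0 CPM in radial glia. The part of such cells in the values below was not tested. The p-values below measure the spread between 2 aliquots of 1 cell suspension, which is technical.

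Meg3 was among the abundant RNAs of these cells. It had 14941 Illumina UMIs, or 0.148% of all, and ranked 119 among 16612 genes with a UMI. A Meg3 UMI was found in 911 of 1121 cells (81.3%), with a median of 4 and a maximum of 237 UMIs per cell. Mirg was far rarer, with 33 UMIs in 27 cells and rank 10656. Per library, Meg3 had 1103 CPM in the 190 cell aliquot and 1560 CPM in the 951 cell aliquot by Illumina, and 911 and 1185 CPM by Nanopore.

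Meg3 was high in GABAergic neurons, intermediate in mature glutamatergic neurons and low in progenitors and immature glutamatergic neurons. In the order of the 190 and then the 951 cell aliquot, mature GABAergic cells had 2885 and 3574 CPM (mean 3230 ± 487, SD, n = 2). Immature GABAergic cells had 2434 and 3823 CPM (3129 ± 982, SD, n = 2). The ranges of these classes overlapped, so their order is not settled by these data. Mature glutamatergic cells had 1480 and 1836 CPM (1658 ± 252, SD, n = 2), below every GABAergic sum and above every sum of progenitors and immature glutamatergic cells. Immature glutamatergic cells had 459 and 433 CPM (446 ± 18.3, SD, n = 2).

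Among the dividing and precursor classes, cycling cells had 341 and 480 CPM (411 ± 97.9, SD, n = 2). Radial glia, the stem cells of the ventricular wall, had 499 and 306 CPM (402 ± 137, SD, n = 2). The ranges of these classes and that of immature glutamatergic cells overlapped. Intermediate progenitors, the transit cells between radial glia and glutamatergic neurons, had the lowest sums, 243 and 164 CPM (204 ± 56, SD, n = 2), below both sums of radial glia. Without cells called doublets, radial glia had 348 and 223 CPM, and the ranges of these classes overlapped. Cajal-Retzius cells, an early-born neuron of the cortical surface that secretes reelin, had the highest mean but also the widest spread, with 2294 CPM from 4 cells and 8750 CPM from 13 cells, and they entered no test.

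**Figure D1:**
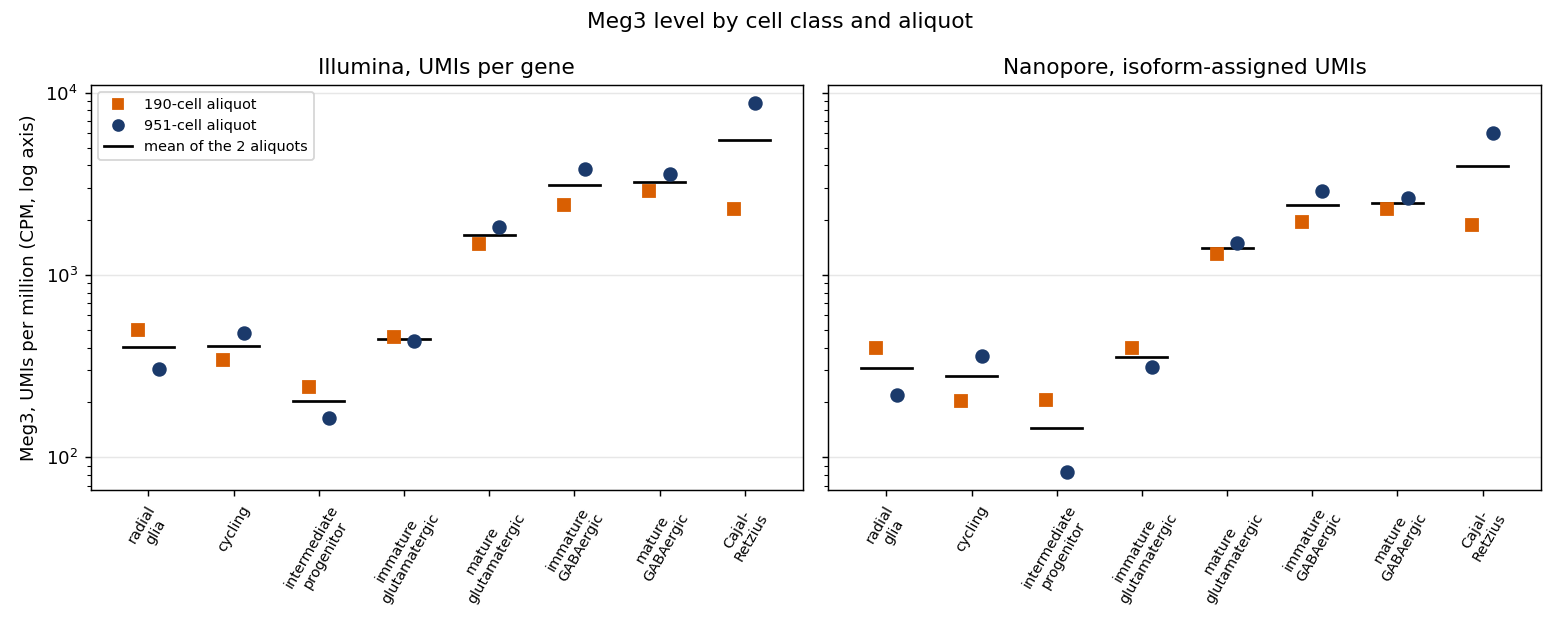
Meg3 in CPM (log axis) for each cell class, by Illumina on the left and by Nanopore on the right. Squares are the 190 cell and circles the 951 cell aliquot, and lines are their means. On both platforms the 4 GABAergic sums lie above the mature glutamatergic sums, and these lie above all sums of progenitors and immature glutamatergic cells.

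By Nanopore, which counted 6698 Meg3 UMIs, the classes took the same order from the top down to immature glutamatergic cells. Mature GABAergic cells had 2296 and 2660 CPM, immature GABAergic cells 1949 and 2876 CPM and mature glutamatergic cells 1308 and 1492 CPM. Radial glia then came before cycling cells, with 400.2 and 219.6 CPM against 203.3 and 357.9 CPM, and these ranges overlapped. Intermediate progenitors again had the lowest mean, with 207.4 and 83.2 CPM, although their range overlapped that of cycling cells here. Both platforms read the same captured molecules, so they are not independent samples of the cells.

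Within classes, single cells varied widely. The median Meg3 count was 14 UMIs in both GABAergic classes, with quartiles of 6.25 and 26 in immature and of 6 and 26 in mature cells. Mature glutamatergic cells had a median of 13 UMIs (quartiles 2 and 30), but held more RNA per cell, with median depths of 13128 and 11328.5 UMIs against 5989 and 4937 in mature GABAergic cells. This median joined clusters far apart in Meg3, described below. Progenitor classes and immature glutamatergic cells had medians of 1 to 3 UMIs. Single cells above 1000 CPM were present in each of these classes, in 7 radial glia, 21 cycling cells, 3 intermediate progenitors and 25 immature glutamatergic cells, against 149 mature glutamatergic, 112 immature GABAergic and 134 mature GABAergic cells.

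**Figure D2:**
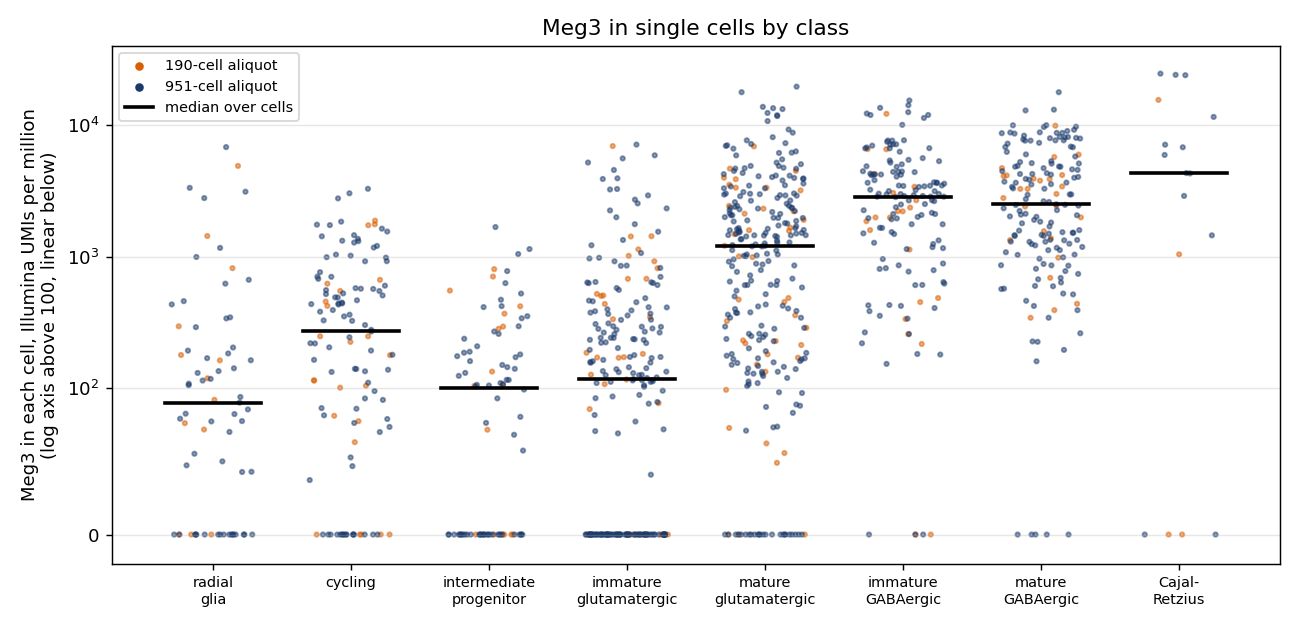
Meg3 in each of 1121 cells, in Illumina CPM of the cell (log axis above 100, linear below), by class and coloured by aliquot, with the median as a line. Cells at 0 are rare among GABAergic neurons (5 of 146 immature and 5 of 171 mature cells) and frequent among immature glutamatergic neurons (91 of 233).

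The share of cells with at least 1 Meg3 UMI followed the same division. It was 97.1% in mature GABAergic, 96.6% in immature GABAergic and 90.3% in mature glutamatergic cells. In cycling cells it was 82.2%, in radial glia 71.0%, in immature glutamatergic cells 60.9% and in intermediate progenitors 58.0%. With every cell thinned to 2000 UMIs, which removes the difference in depth, the shares were 93.6, 88.4 and 71.7% in the first group, and 47.5, 26.1, 33.9 and 26.1% in the second. No class that should lack Meg3 was large enough to measure how much free RNA adds to these shares. The 3 microglial cells held 3 Meg3 UMIs in 32409 UMIs in all, or 92.6 CPM, and the part of free RNA in the low values of progenitors was not tested.

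The mature and the immature glutamatergic class each joined 2 clusters, and 1 cluster of each was weakly marked. The weakly marked cluster carried only 3 of the 8 markers of its class in mature and 4 of 8 in immature cells, so their class names are weakly founded. In the order of the aliquots, the weakly marked mature cluster had 840.5 and 866.0 CPM of Meg3, from 186 and 1088 UMIs in 22 and 119 cells. The other mature cluster, led by Crym and with Fezf2 among its leading genes, had 1921 and 2677 CPM, from 617 and 3881 UMIs in 21 and 117 cells. The ranges did not overlap. In the 951 cell aliquot the second cluster exceeded the immature GABAergic sum of the 190 cell aliquot. Within each aliquot, however, it lay below the immature GABAergic sum (2434 and 3823 CPM). The weakly marked immature cluster had 419.9 and 292.9 CPM and the other 499.9 and 527.3 CPM. Both weakly marked clusters were left out in an alternative described below.

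The spread among Cajal-Retzius cells was that of single cells. In the 190 cell aliquot, the 4 cells held 0, 0, 12 and 85 Meg3 UMIs. In the 951 cell aliquot, the 13 cells ranged from 0 to 237 UMIs with a median of 74, and 3 of them had 23970 CPM or more. Cells with and without Meg3 thus stood side by side in both aliquots. Among radial glia, 1 cell called a doublet in the 951 cell aliquot held 73 of the 261 Meg3 UMIs of that sum. In the 190 cell aliquot, 2 radial glia called doublets held 50 of the 90 Meg3 UMIs, 47 of them in 1 cell. Without doublets the radial glia had 348 and 223 CPM.

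The difference in Meg3 between radial glia and both classes of mature neurons exceeded the spread between aliquots. By Illumina, the fitted log2 fold change was 2.14 ± 0.36 (SE) in mature glutamatergic cells over radial glia, with an adjusted p of 0.00163 by edgeR's quasi-likelihood test with Benjamini-Hochberg adjustment, and Meg3 was 1 of the 33.6% of 8560 genes called in that comparison. It was 2.98 ± 0.37 in mature GABAergic cells over radial glia, where 31.5% of genes were called and the adjusted p by edgeR was 0.000304. Both sums of each of these mature classes lay above both sums of radial glia, whereas the sums of immature glutamatergic cells, which were not tested against radial glia, lay within their range. Without doublets these values were 2.74 and 3.63, and without the cells whose barcodes occur in both aliquots 1.97 and 2.92. The comparisons use the same radial glia sums and are therefore not independent of each other.

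Meg3 differed between the mature and the immature glutamatergic class, while between the GABAergic classes it did not pass the test. The GABAergic classes differ in cell type as well as in name, since the immature class was led by Ebf1, Isl1 and Foxp2, genes known from striatal neurons, and the mature class by Sst, Maf and Npy, genes known from interneurons. Their comparison is therefore one between neuron types and does not measure a change with maturation. The log2 fold change of mature over immature glutamatergic cells was 1.98 ± 0.35 (adjusted p by edgeR 0.0181), in a comparison that called 3.59% of genes. The call depended on single class sums, since leaving out either immature sum or the mature sum of the 951 cell aliquot gave adjusted p-values by edgeR of 0.118, 0.193 and 0.0646, at log2 fold changes of 1.97, 1.94 and 1.78. Between mature and immature GABAergic cells the log2 fold change was −0.02 ± 0.33 (adjusted p by edgeR 1), where 2.55% of genes were called. The difference between the glutamatergic and the GABAergic log2 fold change was itself tested, a test added after the values had been seen, and it too sets glutamatergic cells against different types of GABAergic neuron. It was 2.00 ± 0.48 on the log2 scale (adjusted p by edgeR 0.0993, with 2.25% of genes called), and 2.07 with the aliquot as a block (adjusted p by edgeR 0.0222, with 5.53% of genes called). Without the immature GABAergic sum of the 190 cell aliquot it was 2.35 (adjusted p by edgeR 0.00071).

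Between mature GABAergic and mature glutamatergic cells, the log2 fold change of Meg3 was 0.84 ± 0.33 (adjusted p by edgeR 0.211), and 9.65% of genes were called. The sums of these classes did not overlap. The call depended on the fit, with an adjusted p of 0.0126 by DESeq2 and of 0.00693 by edgeR without doublets, and the value fell to 0.42 without the weakly marked clusters. None of the doublets lay in either of these classes, so their own counts were the same in the fit without doublets. Between intermediate progenitors and radial glia it was −0.996 ± 0.38 (adjusted p by edgeR 0.133), with 15.2% of genes called. Here too DESeq2 gave a call (adjusted p 0.0107), and without doublets the value was −0.38 (adjusted p by edgeR 0.357).

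**Figure D3:**
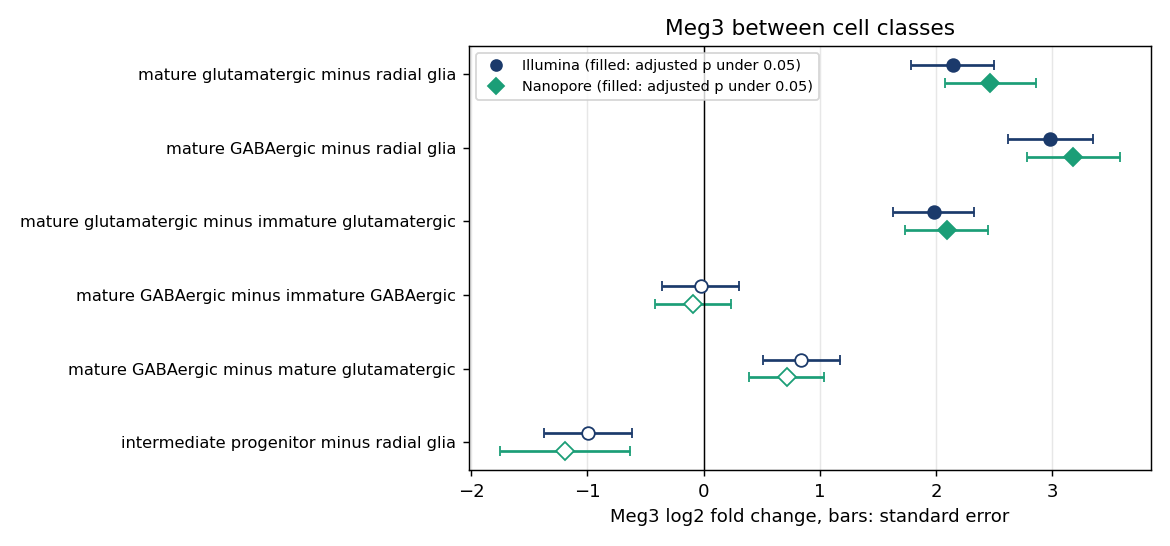
Fitted log2 fold change of Meg3 in the 6 comparisons between cell classes, by Illumina (circles) and Nanopore (diamonds), with standard errors as bars. Filled symbols passed an adjusted p of 0.05. The differences between mature neurons and radial glia and between mature and immature glutamatergic cells are filled on both platforms, and that between GABAergic classes lies near 0.

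Nanopore counts gave the same calls in these comparisons. In the order used above for the first 3 comparisons, the log2 fold changes were 2.47 ± 0.39, 3.18 ± 0.40 and 2.09 ± 0.36, with adjusted p-values by edgeR of 0.00137, 0.00041 and 0.0147. The third of these calls was again lost without either immature sum or the mature sum of the 951 cell aliquot (adjusted p by edgeR 0.0721, 0.267 and 0.0891). The shares of the 5149 genes called were 38.9, 36.6 and 5.22%. Mature against immature GABAergic cells gave −0.09 ± 0.33 (adjusted p by edgeR 0.989), with 2.84% of genes called. Mature GABAergic against mature glutamatergic cells gave 0.71 ± 0.32 (adjusted p by edgeR 0.251, 10.8% of genes called), which passed with the aliquot as a block (adjusted p 0.0296, 16.5% of genes called). Intermediate progenitors against radial glia gave −1.20 ± 0.56 (adjusted p by edgeR 0.205, 18.6% of genes called), and passed at −0.97 without the radial glia of the 190 cell aliquot (adjusted p by edgeR 0.0134).

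Nanopore counted fewer Meg3 molecules than Illumina. For every 100 Illumina UMIs of Meg3 there were 44.8 Nanopore UMIs assigned to an isoform, against 58.2 over all genes. Between the libraries, the log2 ratio of Nanopore to Illumina relative to all genes was −0.21 ± 0.22 (adjusted p by edgeR 0.444), where 53.9% of 10733 genes were called. With the aliquot as a block it was −0.22 ± 0.046 (adjusted p by edgeR 0.00205), where 72.8% of genes were called. Without the Illumina library of the 190 cell aliquot it passed at −0.39 (adjusted p by edgeR 0.000676), and without that of the 951 cell aliquot it turned to 0.051 (adjusted p by edgeR 0.826). A Nanopore molecule entered the counts only if its exons matched an annotated isoform in full. The part of this rule in the lower Nanopore count of Meg3 was not tested.

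By annotation, the leading isoform of Meg3 ends early in the gene and the next one late, while others end elsewhere. UMIs were assigned by their exons, and the ends of the molecules were not measured here. Meg3-205 took 494 of 905 Meg3 Nanopore UMIs in the 190 cell aliquot (54.6%, exact 95% binomial interval 51.3 to 57.9) and 3226 of 5793 in the 951 cell aliquot (55.7%, 54.4 to 57.0). Meg3-207 took 33.3% (30.2 to 36.4) and 29.2% (28 to 30.4). For both isoforms the intervals of the aliquots overlapped, and they cover counting error only. Meg3-201 followed with 5.19 and 7.04%, Meg3-206 with 4.75 and 4.92%, Meg3-209 with 0.994 and 1.48% and Meg3-211 with 0.884 and 0.984%. The other 5 isoforms each had at most 0.345%.

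The annotated end of Meg3-205 lies 4318 bases from the first base of the gene and that of Meg3-207 lies 30720 bases from it. In both, the third exon begins at the same base, but that of Meg3-205 runs on for 1293 bases, through the splice site that Meg3-207 uses after 716 bases, up to the run of A printed above. The deposited counts do not show whether the molecules counted as Meg3-205 ended there. Nor do they tell a transcript that is cleaved there from a longer one in which the oligo-dT primer annealed to the run of A. This was not tested. Isoforms annotated to end within 50 bases of the end of Meg3-207 took 35.1 and 31.7% of Meg3 UMIs, and those annotated to end elsewhere 10.3 and 12.6%.

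**Figure D4:**
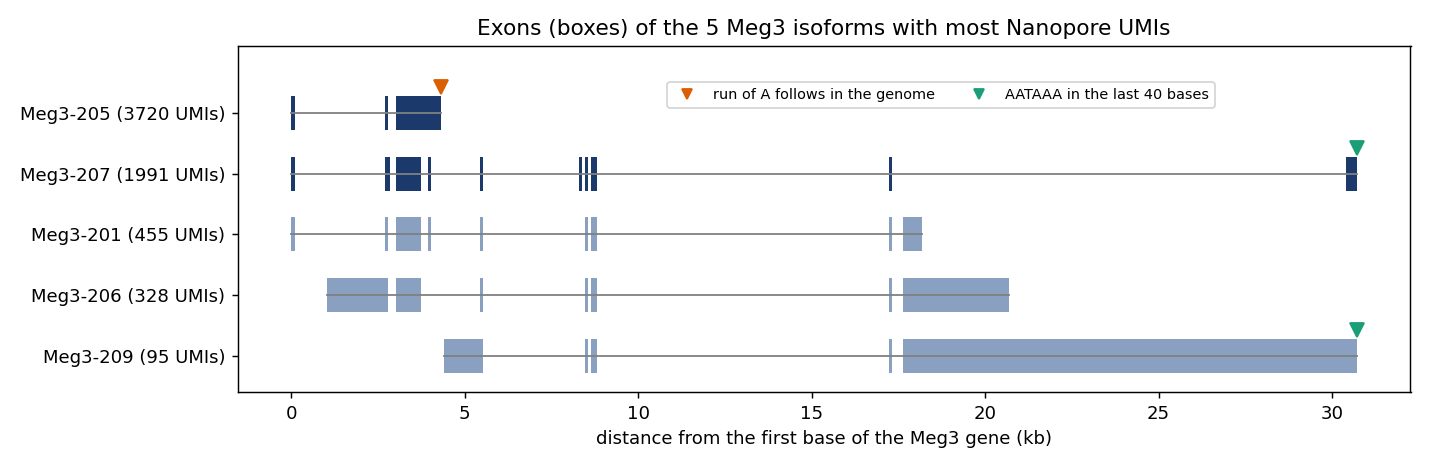
Exons of the 5 Meg3 isoforms with most Nanopore UMIs, drawn to scale by distance in kb from the first base of the gene, with UMIs over both aliquots beside each name (3720 for Meg3-205 and 1991 for Meg3-207). The orange mark is the genomic run of A at the end of Meg3-205, and green marks are ends with an AATAAA in their last 40 bases.

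In progenitors the order of both isoforms was reversed. Over radial glia, cycling cells and intermediate progenitors together, Meg3-205 took 36.6% (26.8 to 47.2) of 93 UMIs in the 190 cell aliquot and 36.3% (31.3 to 41.5) of 358 UMIs in the 951 cell aliquot, while Meg3-207 took 58.1 and 55.9%. In immature neurons Meg3-205 took 58.5 and 55.5% and Meg3-207 32.1 and 28.7%. In mature neurons Meg3-205 took 55.1 and 57.8% and Meg3-207 31.0 and 26.3%. The intervals of progenitor and neuronal shares did not overlap in either aliquot, for either isoform. These intervals treat each UMI as an independent draw and leave out the spread between cells. Radial glia alone had 40% (24.9 to 56.7) and 31.8% (23.3 to 41.4) Meg3-205, but only 40 and 110 Meg3 UMIs. In the 190 cell aliquot, the 16 Meg3-205 and 20 Meg3-207 UMIs of radial glia lay in 3 cells each. In Cajal-Retzius cells the share of Meg3-205 was 71.1 and 55.8%.

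**Figure D5:**
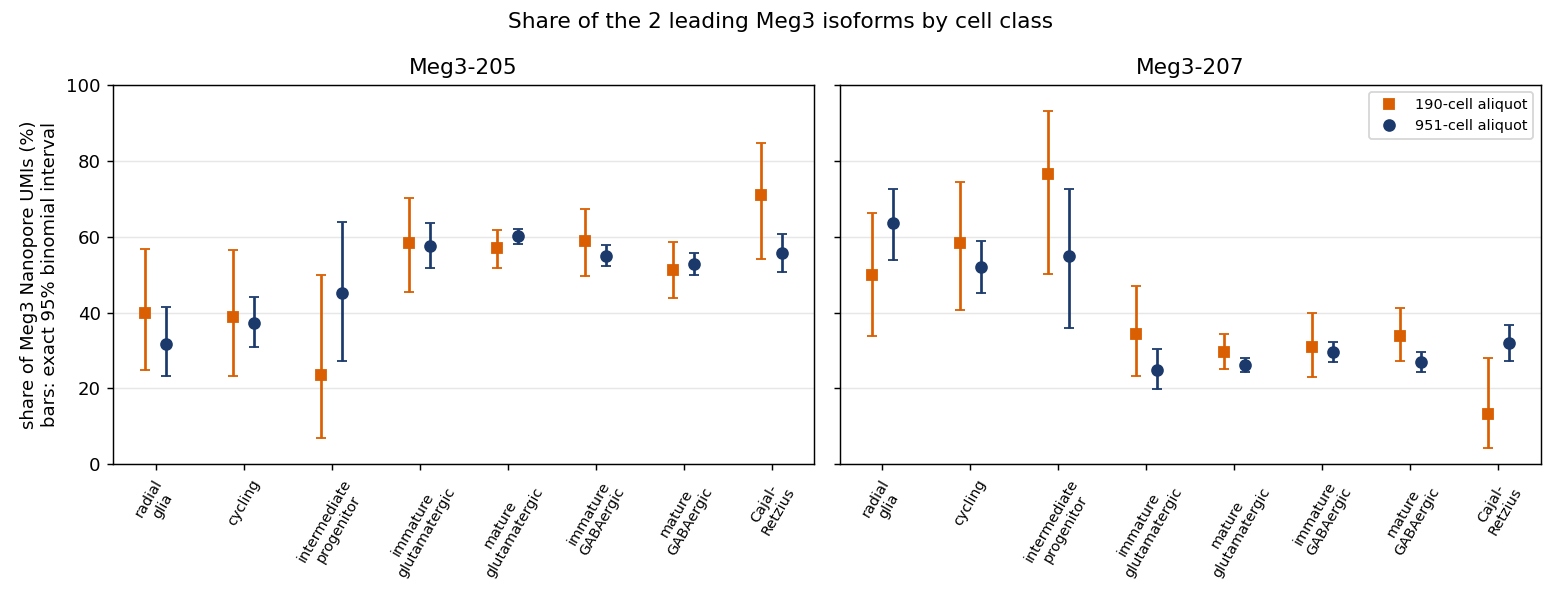
Share of Meg3-205 (left) and Meg3-207 (right) in the Meg3 Nanopore UMIs of each cell class, with exact 95% binomial intervals, which cover counting error only. Squares are the 190 cell and circles the 951 cell aliquot. Shares of Meg3-205 lie between 23.5 and 45.2% in the 3 progenitor classes and between 51.3 and 71.1% in the neuronal classes.

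Across 680 genes with at least 2 isoforms above the filter, isoform usage was tested within each gene. For Meg3, with 5 isoforms in the test, usage differed between mature glutamatergic cells and radial glia (adjusted p 0.0194 by edgeR's quasi-likelihood test of differential splicing), where 16.8% of genes were called. It also differed between mature GABAergic cells and radial glia (adjusted p by edgeR 0.0152), where 13.4% were called. Relative to the other isoforms of the gene, Meg3-207 changed by −0.66 and −0.59 on the log2 scale in these comparisons and Meg3-205 by 0.64 and 0.52, and neither isoform passed on its own (adjusted p by edgeR 0.0869 and 0.2 for Meg3-207, 0.13 and 0.345 for Meg3-205). Without any filter on isoforms the gene no longer passed (adjusted p by edgeR 0.385 and 0.26), and without the radial glia of the 951 cell aliquot it did not either (0.687 and 0.696). The first call was also lost without either mature glutamatergic sum (adjusted p by edgeR 0.163 and 0.234), and the second without the mature GABAergic sum of the 951 cell aliquot (0.277). With Meg3-205 left out, the usage of the remaining isoforms gave adjusted p-values by edgeR of 0.0507 and 0.0124. Isoform usage was not refitted without doublets, which held 50 of 90 and 73 of 261 Illumina Meg3 UMIs of radial glia in the 190 and 951 cell aliquots.

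No difference in Meg3 usage was called in the other 4 comparisons. The adjusted p by edgeR was 0.95 between mature and immature glutamatergic cells, where 2.06% of genes were called, and 0.941 between mature and immature GABAergic cells, where 0.588% were called. It was 0.635 between mature GABAergic and mature glutamatergic cells (2.5% of genes called) and 0.871 between intermediate progenitors and radial glia (3.38% of genes called). The last of these rests on 17 and 31 Meg3 UMIs in intermediate progenitors.

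Most cells in which both isoforms could be seen held both. Of 1121 cells, 584 had a Meg3-205 UMI, 557 had a Meg3-207 UMI and 466 had both. Among the 557 cells with at least 2 UMIs of these isoforms, 466 held both. Mature glutamatergic cells held both in 164 of 181 such cells and immature GABAergic cells in 107 of 120. In radial glia and intermediate progenitors, with 14 and 10 such cells, 9 and 6 held both. A cell with few Meg3 UMIs has less chance to show both isoforms. Median Illumina counts of Meg3 were 1 UMI in both of these classes, against 13 in mature glutamatergic and 14 in immature GABAergic cells. The shares were not matched for this and do not compare the classes.

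Mirg was rare and most of its UMIs lay in neurons. Its 33 UMIs lay in 27 cells, 26 of them neurons, against 820 neurons among the 1094 cells without a Mirg UMI. Progenitors held 1 UMI in 275 cells (0.319 CPM, exact 95% Poisson interval up to 1.78) and mature neurons 22 UMIs in 450 cells (5.34 CPM, 3.34 to 8.08). These intervals do not overlap, but that of immature neurons, with 6 UMIs in 379 cells (2.24 CPM, 0.821 to 4.87), overlapped both, and all cover counting error only. The difference came from the 951 cell aliquot, with 0 and 6.12 CPM, since in the 190 cell aliquot progenitors and mature neurons held 1 UMI each (1.56 and 1.44 CPM). Radial glia and intermediate progenitors held 0 UMIs. By the limit of 3 counts used here for a count of 0, which is lower than the end of the Poisson interval, this allows up to 3.51 CPM for radial glia and 4.78 CPM for intermediate progenitors in the 951 cell aliquot. Most Mirg UMIs came from the larger aliquot, 29 of 33, and too few for a test were left in any class of the smaller one.

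By class, mature glutamatergic cells held 1 and 18 Mirg UMIs (1.84 and 6.65 CPM), immature GABAergic cells 0 and 4, and mature GABAergic cells 0 and 3. Cajal-Retzius cells held 1 and 3 UMIs in their 17 cells, or 23.6 and 23.9 CPM. All 27 cells with a Mirg UMI also held Meg3, with a median of 39 Meg3 UMIs against 4 in the cells without Mirg. Median depths of these cells were 7388 and 7608.5 UMIs, so the cells with Mirg were not deeper. Within mature glutamatergic cells alone, the 15 cells with Mirg had a median of 44 Meg3 UMIs and the 264 cells without had 10.5, at median depths of 9964 and 11465.5 UMIs. This class joins clusters far apart in Meg3, and the cells with Mirg were not split by cluster.

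Nanopore assigned 8 Mirg UMIs to isoforms, all in the 951 cell aliquot. Mirg-207 had 5, Mirg-209 had 2 and Mirg-204 had 1. Only the last is annotated with exons that contain microRNAs printed above, so a single molecule of that kind was counted. Mirg-207 starts 18200 bases into the gene and has 2 exons. The first has 330 bases, against 165 in the exon of Mirg-204 that ends at the same base, and the second is also the last exon of Mirg-204.

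The protein-coding and other noncoding genes of the domain had far fewer UMIs than Meg3, and a UMI stands for 1 molecule whatever its length. Dlk1, which encodes a transmembrane protein related to Notch ligands, had 44 UMIs in 9 progenitor cells, 18 in immature neurons, 12 in mature neurons and 6 in 1 Cajal-Retzius cell. In radial glia it had 3 and 32 UMIs (16.6 and 37.5 CPM), 24 of them in 1 cell, and in mature glutamatergic cells 1 and 0 UMIs (1.84 and 0 CPM). The difference between these classes passed the test, with an adjusted p by edgeR of 0.00547, which DESeq2 did not reach (adjusted p 0.0718) and which was lost without the 951 cell sum of either class (adjusted p by edgeR 0.123 and 0.127). The opposite order of Dlk1 and Meg3 did not extend to every class. Immature GABAergic cells, where Meg3 was high, had 51.4 and 15.1 CPM of Dlk1, from 17 of the 18 UMIs of immature neurons, and overlapped radial glia. Rtl1, a gene derived from a retrotransposon, had 2 UMIs, and Dio3, the enzyme that inactivates thyroid hormone, had 5. B830012L14Rik, a noncoding RNA between Rian and Mirg, had 22 UMIs, of which 10 lay in mature neurons. Over both aliquots it had 0.958 CPM in progenitors, 2.24 CPM in immature and 2.43 CPM in mature neurons.

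Of the genes that flank the domain, none passed the test. Of 9 genes listed for the domain and its flanks, 3 were abundant enough to be tested, and in mature glutamatergic cells over radial glia 0 were called higher and 1 lower, Dlk1, against 17.2% of all genes called higher and 16.4% lower. Wars, the cytosolic tryptophanyl-tRNA synthetase, gave −0.08 ± 0.34 on the log2 scale (adjusted p by edgeR 1). Ppp2r5c, a regulatory subunit of protein phosphatase 2A, gave −0.85 ± 0.54 (adjusted p by edgeR 0.246). Over both aliquots and both neuron types, Wars had 41.5 CPM in progenitors, 41.0 CPM in immature and 40.3 CPM in mature neurons. These pooled values hide lower ones in GABAergic cells. Wars had 17.1 and 35.7 CPM in immature and 19.9 and 27.6 CPM in mature GABAergic cells, against 36.9 and 45.5 CPM in mature glutamatergic cells. In mature GABAergic cells over radial glia, none of the 3 tested genes was called. Begain, a postsynaptic protein gene, had 11 UMIs in progenitors, 14 in immature and 45 in mature neurons, 40 of them in mature glutamatergic cells. It was not tested. Wdr25 had 15 UMIs in all.

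Of 38 imprinted genes listed elsewhere in the genome, 24 were tested, and in mature glutamatergic cells over radial glia 9 were higher and 4 lower by edgeR, where 17.2% of all genes were called higher and 16.4% lower, with a median log2 fold change of 0.53 against 0.00 over all genes. Grb10, an adaptor that limits growth factor signalling, fell from 116 and 78.4 CPM in radial glia to 5.53 and 1.85 CPM (log2 fold change −4.99 ± 0.51). H19, a maternally expressed noncoding RNA, had 72.1 and 41.0 CPM in radial glia and 0 and 1.48 CPM in mature glutamatergic cells (−5.18 ± 0.70). Plagl1, a zinc finger factor that regulates other imprinted genes, fell from 99.8 and 89.0 to 11.1 and 6.28 CPM (−3.54 ± 0.48). Each of these passed edgeR's test, with adjusted p-values of 4.38e-11, 6.17e-08 and 9.48e-08. Usp29, which encodes a deubiquitinase, rose instead, from 2 and 0 UMIs in radial glia to 29 and 136 UMIs (adjusted p by edgeR 8.19e-07). H19 is expressed from the maternal copy, Plagl1 and Usp29 from the paternal one.

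Of 17 long noncoding RNAs listed outside the domain, 9 were tested, and 4 were higher and 2 lower in the same comparison, beside the same shares of all genes called higher (17.2%) and lower (16.4%), with a median log2 fold change of 0.53 against 0.00 over all genes. Kcnq1ot1, Peg13 and Snhg14 stand on this list and on that of imprinted genes, so the lists are not separate sets. Mir124-2hg, a host of the neuronal microRNA miR-124, rose from 11.1 and 8.20 to 83.0 and 64.3 CPM (log2 fold change 3.05 ± 0.38, adjusted p by edgeR 7e-09). Miat, a nuclear noncoding RNA, rose from 44.4 and 67.9 to 136 and 193 CPM (1.52 ± 0.26, adjusted p by edgeR 1.05e-05). At the coarser cluster resolution of 0.5 its log2 fold change was 0.30 (adjusted p by edgeR 0.343), but the groups differed there. No cluster was named intermediate progenitor at that resolution, and the radial glia class held 30 and 126 cells instead of 13 and 56. Mir124a-1hg went from 0 and 1 UMI to 17 and 36 UMIs (adjusted p by edgeR 0.011). Rmst fell from 38.8 and 64.4 to 5.53 and 9.24 CPM (−2.67 ± 0.47, adjusted p by edgeR 9.64e-06). It was not confined to progenitors, with 213 and 128 CPM in Cajal-Retzius cells, from 9 and 16 UMIs. Intermediate progenitors had 32.9 and 57.3 CPM of Rmst and cycling cells 3.22 and 11.9 CPM. Leaving out the radial glia of the 951 cell aliquot ended the calls of Mir124a-1hg (adjusted p by edgeR 0.268) and Rmst (0.0595). Miat was already at 243 and 260 CPM in intermediate progenitors, the class with the lowest mean of Meg3.

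The genes whose levels across 7 classes were most like those of Meg3 were Dpp6, Sept6, Dynll2, Elmo1 and Rph3a, by the lower of the Pearson correlations of log2(CPM + 1) in the 2 aliquots among 8124 genes with a mean of at least 10 CPM. The correlations for the 190 and 951 cell aliquot were 0.94 and 0.95 for Dpp6, an auxiliary subunit of Kv4 potassium channels. They were 0.90 and 0.91 for Sept6, a septin, 0.90 and 0.89 for Dynll2, a dynein light chain, 0.97 and 0.89 for Elmo1, an activator of Rac signalling, and 0.92 and 0.88 for Rph3a, a Rab-binding vesicle protein. Each correlation is over 7 classes of the same library and is given as a description. Dpp6 rose with Meg3 from 5.55 and 2.34 CPM in radial glia to 26.5 and 45.6 CPM in mature GABAergic cells, at a far lower level. Unlike Meg3, it was not higher in immature GABAergic cells (17.1 and 20.6 CPM) than in mature glutamatergic cells (20.3 and 21.8 CPM) of the same aliquot. Its radial glia values lie below the 16.6 and 3.51 CPM that 3 counts give in those sums. The immature GABAergic value of the 190 cell aliquot likewise lies below 25.7 CPM. Mirg, with a mean of 1.80 CPM, was too rare for such a ranking.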

How the data were processed

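UMI counts of single cells were measured in 4 libraries, Illumina and Nanopore for each of 2 aliquots. The deposited Illumina values are unnormalized counts of UMIs by gene, which the authors made with Cell Ranger 2.0 on mm10. The deposited Nanopore values are unnormalized counts of UMIs by isoform of Gencode vM18, made by the authors from consensus reads aligned with minimap2, and a UMI was counted when its exons matched 1 isoform in full. Nanopore gene counts were sums over isoforms.

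Cells with at least 1400 genes were clustered with Seurat 5.3.0 on 2000 variable genes at resolution 0.8. Counts were summed per class and aliquot, 14 sums over 7 classes, and tested with edgeR 4.0.16 (quasi-likelihood, TMM, genes filtered by filterByExpr, Benjamini-Hochberg adjustment, threshold 0.05). DESeq2 1.42.0 was an alternative. The script was tested on simulated data. Members, gene lists and markers were chosen with earlier results of these data known. Of each list, the 4 tested genes with the largest change among those called were named, and 5 genes by likeness to Meg3.

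The libraries of a platform pair by aliquot, since both read the same droplets. Aliquot differences correlated between platforms (r = 0.48 over 7419 genes), and between classes over 21 pairs from 0.13 to 0.32 by Illumina and from 0.025 to 0.10 by Nanopore. Transcript ends and exons came from Gencode vM21 (GRCm38), microRNAs from RefSeq. Depths are given at the start of the results.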

Additional observations from a re-analysis of the deposited data

How the results depend on the processing

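All 6 comparisons of Meg3 between classes were refitted, and settings that leave out microglial cells, weakly marked clusters, shared barcodes or Meg3-205 were chosen after seeing the data, as was the test of the difference between the glutamatergic and the GABAergic fold change. With the aliquot as a replicate block (pairing), the platform ratio passed at −0.22, mature GABAergic against mature glutamatergic cells passed by Nanopore at 0.71, and the difference between fold changes passed at 2.07 (Illumina) and 2.27 (Nanopore). The block changed no other Meg3 call. DESeq2 added calls at −1.03 (intermediate progenitors against radial glia), 0.90 (mature GABAergic against mature glutamatergic) and 1.99 (difference between fold changes), all by Illumina. Without the filter on low counts the same 3 results passed at −0.98, 0.81 and 2.04 by Illumina and at −1.17, 0.63 and 2.174 by Nanopore, while isoform usage lost its calls (adjusted p by edgeR 0.26 for mature GABAergic and 0.385 for mature glutamatergic cells against radial glia), as it did without Meg3-205 in the latter (0.0507). Leaving out doublets gave calls for mature GABAergic against mature glutamatergic cells (0.89 and 0.72 by Illumina and Nanopore) and for the difference between fold changes (1.97 and 2.16), and turned the uncalled value of Wars to 0.064. Neither mature class held a cell called a doublet, so the sums of both were unchanged in that setting. The causes were not tested.

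Each class sum or library was left out in turn, where the lone sum of a class is assumed to vary like the others, and each whole aliquot, which gives a value with no test. Values ranged, by Illumina and by Nanopore, from 1.69 to 2.13 and from 1.71 to 2.25 for mature against immature glutamatergic cells, from −0.37 to 0.39 and from −0.33 to 0.35 for mature against immature GABAergic cells, from 0.57 to 1.07 and from 0.46 to 0.83 for mature GABAergic against mature glutamatergic cells, and from 1.57 to 2.35 and from 1.76 to 2.43 for the difference between fold changes. By Nanopore they ranged from 1.71 to 2.76 for mature glutamatergic cells and from −1.75 to −0.44 for intermediate progenitors against radial glia, and both comparisons of mature neurons with radial glia kept their calls for Meg3 on both platforms. The platform ratio ranged from −0.47 to 0.051 and Wars from −0.31 to 0.052, both uncalled in the reported fit. Adjusted p-values by edgeR of isoform usage against radial glia ranged from 0.0306 to 0.696 for mature GABAergic cells, lost in 2 of 4 settings, and from 0.0335 to 0.687 for mature glutamatergic cells, lost in 3 of 4. The sums behind each lost or gained call are given with the results, beside 1 more, the mature glutamatergic sum of the 190 cell aliquot, without which the Nanopore difference between fold changes passed at 2.26, as it did without the immature GABAergic sum of that aliquot at 2.43.

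The numbers of genes called moved with the tool. From edgeR to DESeq2 they went, by Illumina, from 2878 to 1636, from 2700 to 1500, from 307 to 76, from 218 to 80, from 826 to 337 and from 1298 to 596 in the order of the report, and from 193 to 79 for the difference between fold changes. By Nanopore they went from 2005 to 1009, from 1882 to 950, from 269 to 51, from 146 to 34, from 556 to 173, from 960 to 355 and from 121 to 26. The block raised them to 983, 458, 1394 and 473 for mature against immature glutamatergic and GABAergic cells, for mature GABAergic against mature glutamatergic cells and for the difference between fold changes by Illumina, and to 620, 257, 849 and 260 by Nanopore. Depth limits Mirg, with 33 UMIs, and the isoforms of radial glia, with 40 and 110 Meg3 UMIs.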
